A study of Mus musculus with 3 samples.

Results

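The genes described here encode the cytosolic sensors of foreign RNA and DNA together with their adapters and nearest regulators, namely *Ddx58* (RIG-I), *Ifih1* (MDA5), *Dhx58* (LGP2), *Ddx60*, *Mavs*, *Eif2ak2* (PKR), *Zbp1*, *Mb21d1* (cGAS), *Tmem173* (STING) and *Trex1*. They were taken by name, as a set chosen with earlier results of these data known, and all 10 were found among the 26840 genes with a symbol on the array, with 18 of the 56605 gene probes. The files use the older symbols *Ddx58*, *Tmem173* and *Mb21d1*. RNA came from RAW 264.7 cells, a mouse macrophage line, and was hybridised in 1 colour (Cy3), with 1 array for each of 3 conditions. Cells of the LPS group received LPS alone at 50 ng/mL, while those of the CRL1505 + LPS and CRL1506 + LPS groups were first given *L. rhamnosus* CRL1505 or *L. plantarum* CRL1506 for 24 h at 50000000 cells/mL, washed, and then given the same LPS. The time of LPS is 12 h in the text on the series and 3 h in the descriptions of the samples. The series holds no array of cells without LPS, so LPS is shared by all groups and its own effect cannot be measured. Every value compares a strain + LPS with LPS alone or with the other strain.

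RIG-I, MDA5 and LGP2 are the RIG-I-like receptors, helicases that bind viral RNA in the cytosol. RIG-I and MDA5 pass the signal to MAVS on mitochondria, and cGAS detects cytosolic DNA and makes a cyclic dinucleotide that activates STING at the endoplasmic reticulum. Both routes end in the kinases TBK1 and IKK-epsilon and the factors IRF3 and IRF7, which induce type I interferon, and in macrophages interferon in turn induces many of the sensors themselves.

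Each condition had a single array and no replicate, so no test or p-value is given, and a ratio of at least 2-fold (1 on the log2 scale), the threshold stated in the methods, was counted as a change. Levels are log2 processed signals minus the log2 of the signal that 75% of the gene spots of that array stay under, and a gene is represented by its brightest probe. All 18 probes were well above background on all 3 arrays, and none of their spots was marked as an outlier, saturated or uneven. The SD of a log2 ratio had a median of 0.229 between probes of the same gene for CRL1505 and of 0.216 for CRL1506, and of 0.048 and 0.044 between repeated spots of a probe, and both hold no error between cultures. The array of CRL1505 + LPS came from a different slide and scan, so that strain and slide cannot be told apart in its comparisons, while those of LPS and CRL1506 + LPS shared a slide. In whole-culture RNA a change in the RNA per cell and a change in the share of cells with that RNA cannot be told apart. Of 11 macrophage markers on the array, 10 were well above background on all arrays, and *Mrc1* on 1 array. Their summed signal, relative to the 75th percentile, was 786 in LPS, 763 in CRL1505 + LPS and 632 in CRL1506 + LPS. Some of them differed between arrays in either direction. In the same order, log2 levels were 2.61, 4.88 and 3.62 for *Adgre1*, 2.67, 5.07 and 3.62 for *Fcgr1*, and 7.34, 5.87 and 6.47 for *Csf1r*. Of 16 markers of other cell types, 5 were well above background on all arrays (*Cd3e*, *Cd4*, *Ms4a1*, *Siglech* and *Pecam1*), 6 on some and 5 on none. The summed signal of these 16, relative to the 75th percentile, was 76.3 in LPS, 96.5 in CRL1505 + LPS and 108 in CRL1506 + LPS. *Siglech* held most of it, with log2 levels of 6.19, 6.54 and 6.71, and the other 15 summed to 3.48, 3.48 and 3.43. The part of these signals in the results below was not tested.

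In LPS-treated macrophages given CRL1505, the transcripts of the RIG-I-like receptors, *Ddx60* and *Zbp1* were 3.16-fold to 4.31-fold higher than with LPS alone, whereas those of the adapters *Mavs* and *Tmem173* and of the DNA sensor *Mb21d1* differed by at most 1.29-fold. *Eif2ak2* and *Trex1* lay between, at 1.54-fold and 1.56-fold. In cells given CRL1506, *Ddx60* was 3.41-fold higher, and the brightest probes of the other 9 genes stayed under 2-fold. Dimmer probes of *Ifih1*, *Zbp1* and *Ddx58* passed 2-fold for CRL1506. Thus 5 of 10 genes were at least 2-fold higher for CRL1505, against 9.93% of the 15606 genes compared, and 1 of 10 for CRL1506, against 5.67% of 16281 genes. None of the 10 was at least 2-fold lower, compared with 8.41% of all genes for CRL1505 and 3.53% for CRL1506.

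**Figure D1:**
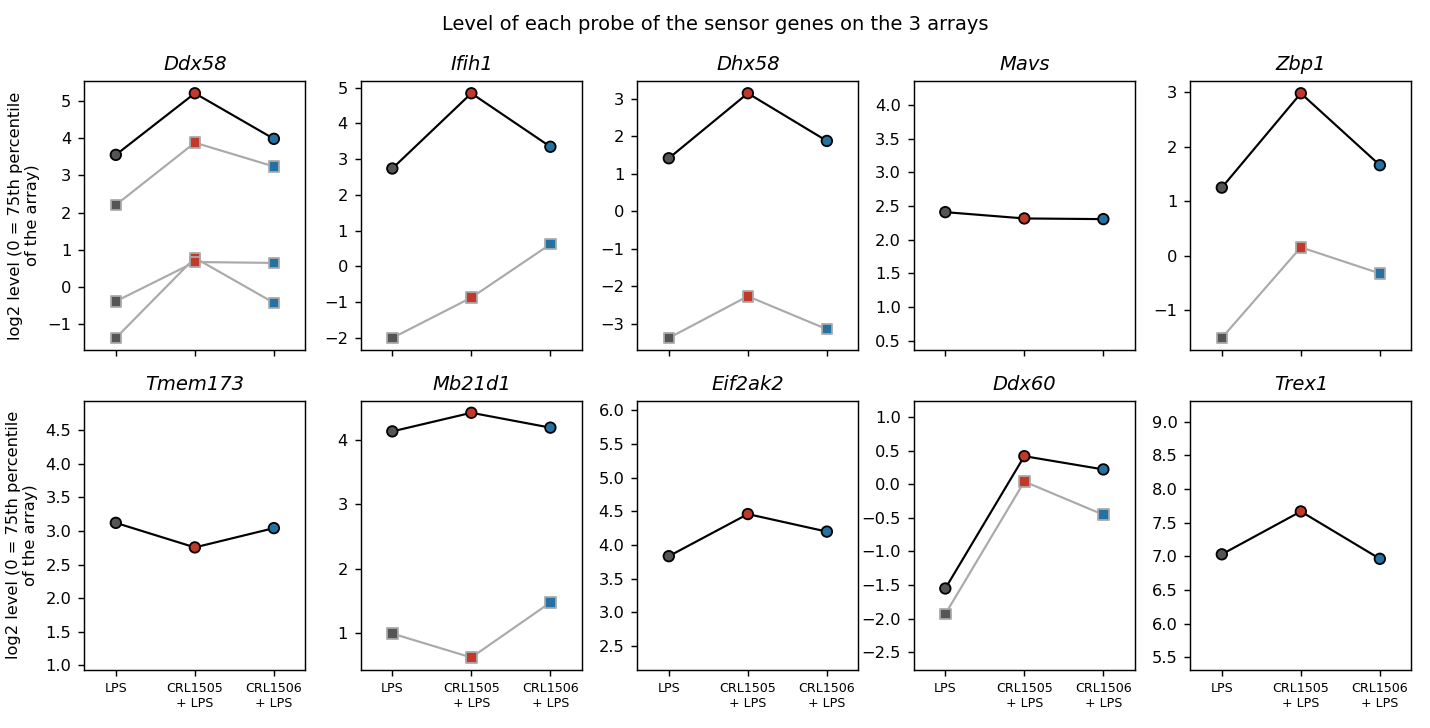
The log2 level (vertical axis, relative to the 75th percentile of the array, with a different range in each panel) of every probe of the 10 genes is plotted for the LPS, CRL1505 + LPS and CRL1506 + LPS arrays. Circles joined by black lines are the probe that represents the gene and squares joined by grey lines its other probes, each point being 1 array. The brightest probes of *Ddx58*, *Ifih1*, *Dhx58* and *Zbp1* peak in CRL1505 + LPS, *Ddx60* is high with both strains, and the line of *Mavs* is almost flat.

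Among the RNA sensors, *Ifih1*, which recognises long duplex RNA, had a log2 level of 2.74 in LPS, 4.85 in CRL1505 + LPS and 3.35 in CRL1506 + LPS. The level was thus highest with CRL1505, and the log2 ratio to LPS was 2.11 for CRL1505, the 423rd highest of the genes compared, and 0.61 for CRL1506. *Ddx58*, whose product senses RNA with a 5′ triphosphate end, had levels of 3.56, 5.21 and 3.99 in the same order, with log2 ratios of 1.66 and 0.43. *Dhx58*, whose product lacks the signalling domains of its relatives and modulates them, had levels of 1.42, 3.15 and 1.88, with log2 ratios of 1.73 and 0.46. In these 3 genes the gap between CRL1505 and LPS exceeded the typical probe-to-probe SD, and it stayed over 2-fold in the 7 other normalizations, with the lowest values at 1.60 for *Ifih1*, 1.15 for *Ddx58* and 1.23 for *Dhx58*. The ratios for CRL1506 also kept their sign in those normalizations and stayed under 2-fold.

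*Ddx60*, which encodes a helicase described as a cofactor of the RIG-I-like receptors, was the only gene of the set whose brightest probe passed 2-fold with both strains. Dimmer probes of *Ifih1*, *Ddx58* and *Zbp1* also did so, as given below. Its level was -1.55 in LPS, 0.42 in CRL1505 + LPS and 0.22 in CRL1506 + LPS, so that LPS alone stood apart from both strains. In log2 terms CRL1505 was 1.97 above LPS and CRL1506 was 1.77 above it, the latter being the 292nd highest of 16281. The other normalizations gave 1.46 to 2.26 (CRL1505) and 1.46 to 1.85 (CRL1506). Both comparisons use the same LPS array, and the ratio between the strains was 0.20. Its processed signals were low, with 253.8 in LPS, 689.9 in CRL1505 + LPS and 812.5 in CRL1506 + LPS. The other probe of the gene had log2 ratios of 1.97 and 1.48.

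*Zbp1*, whose product binds Z-form nucleic acids and can start necroptosis through RIPK3, followed the pattern of the RIG-I-like receptors. Its level was 1.25 in LPS, 2.98 in CRL1505 + LPS and 1.66 in CRL1506 + LPS, and the log2 ratio to LPS was 1.73 and 0.41. *Eif2ak2*, which encodes the kinase PKR that halts translation on binding duplex RNA, had levels of 3.84, 4.46 and 4.20. Its log2 ratios of 0.63 for CRL1505 and 0.37 for CRL1506 exceeded the SD between probes but were under 2-fold, and over the normalizations they lay between 0.12 and 0.92 and between 0.17 and 0.48, respectively.

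The adapters and the DNA-sensing genes showed smaller differences. *Mavs* had levels of 2.41 in LPS, 2.31 in CRL1505 + LPS and 2.30 in CRL1506 + LPS, with log2 ratios of -0.09 and -0.10, both smaller than the SD between probes. *Tmem173* had levels of 3.12, 2.75 and 3.04 and log2 ratios of -0.36 and -0.08, and for CRL1505 it stayed negative over the normalizations, between -0.87 and -0.07. *Mb21d1* had levels of 4.14, 4.43 and 4.20 and log2 ratios of 0.29 and 0.06, which turned negative in 1 and 2 of the 7 other normalizations. *Trex1*, whose exonuclease degrades cytosolic DNA and thereby limits cGAS, had levels of 7.03, 7.67 and 6.96. Its log2 ratio was 0.64 for CRL1505, with a lowest value of 0.13 over the normalizations, and -0.07 for CRL1506, where the sign depended on the normalization. None of these 4 genes passed 2-fold in any of the 11 alternatives tried for either strain against LPS.

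**Figure D2:**
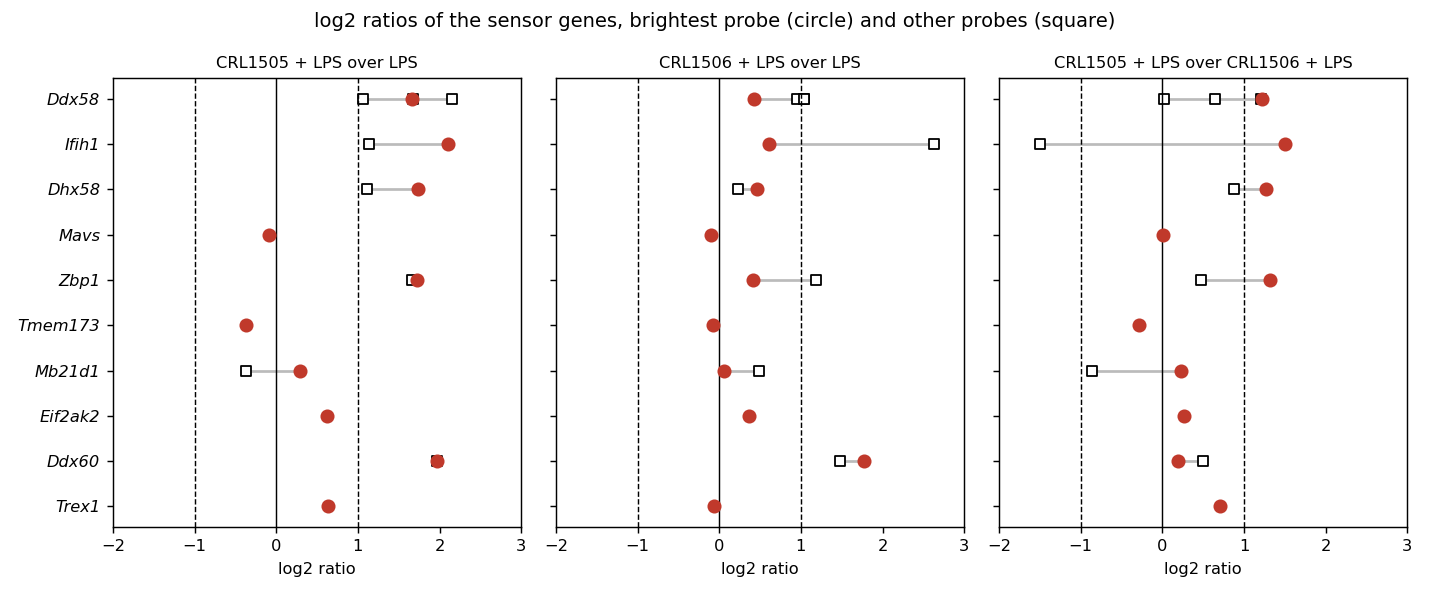
The log2 ratio (horizontal axis) of each of the 10 genes is shown for CRL1505 + LPS over LPS, CRL1506 + LPS over LPS, and CRL1505 + LPS over CRL1506 + LPS. Red circles are the brightest probe, white squares the other probes, grey bars their range, and dashed lines mark 2-fold. In the left panel 5 genes lie right of the 2-fold line with all their probes, in the middle panel *Ddx60* does, and the probes of *Ifih1* and of *Mb21d1* fall on opposite sides of 0 in the right panel.

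Of the 10 genes, 6 had more than 1 probe. For CRL1505, 12 of 18 probes were at least 2-fold higher than in LPS, and these were all 12 probes of *Ddx58*, *Ifih1*, *Dhx58*, *Zbp1* and *Ddx60*. For CRL1506, 6 of 18 probes passed 2-fold, namely both probes of *Ddx60*, 2 of the 4 probes of *Ddx58*, and the dimmer probes of *Ifih1* and *Zbp1*. The share of all gene probes past 2-fold was not computed, and the shares of genes given above rest on brightest probes. These probe counts therefore have no background to be read against. The probes of *Ddx58* gave log2 ratios from 1.06 to 2.16 with CRL1505 (SD 0.451, n = 4 probes) and from 0.43 to 1.04 with CRL1506 (SD 0.290, n = 4 probes). They lie at chr4:40151893-40151952, chr4:40156918-40156977, chr4:40170969-40171028 and chr4:40176528-40176587 on the minus strand of mm9, over 24.7 kb, and the 2 that passed 2-fold for CRL1506, with 1.04 and 1.03, are the middle ones. The exon structure on that build was not used here. The array sequences of the 3 probes upstream of the 3′-most one are given, from the 5′ end of the transcript, since they show a larger ratio for CRL1506 than the brightest probe, whose value was 0.43.
Probe at chr4:40176528-40176587 (log2 ratio 2.16 for CRL1505 and 0.95 for CRL1506): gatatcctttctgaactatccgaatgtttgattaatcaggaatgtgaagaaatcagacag
Probe at chr4:40170969-40171028 (1.06 and 1.03): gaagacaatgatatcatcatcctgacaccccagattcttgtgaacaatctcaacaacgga
Probe at chr4:40156918-40156977 (1.68 and 1.04): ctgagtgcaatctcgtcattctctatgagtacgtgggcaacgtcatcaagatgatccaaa

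Of these 6 genes, *Ifih1* had the widest gap between probes for CRL1506 over LPS and between the strains, while for CRL1505 over LPS the gap was wider in *Ddx58*. The brightest probe, at chr2:62435621-62435680 on mm9, is the one reported above. The other, at chr2:62446313-62446372 and assigned by the array to the separate Ensembl transcript ENSMUST00000176431, had processed signals of 184.6 in LPS, 281.2 in CRL1505 + LPS and 1071 in CRL1506 + LPS. This probe was therefore highest with CRL1506, with a log2 ratio to LPS of 2.63 for CRL1506 and of 1.13 for CRL1505. Both probes lay above LPS with both strains, but they ordered the strains in opposite ways, with a log2 ratio of CRL1505 over CRL1506 of 1.498 for the brightest probe and -1.496 for the other. The last 30 bases of the dimmer probe hold a polyadenylation-type hexamer, in capitals, which marks many transcript ends.
*Ifih1*, dimmer probe, bases at its 3′ end: attactcctcATTAAAgtgtgatgcatggg

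The probes of *Zbp1* also differed for CRL1506. They had log2 ratios of 1.73 and 1.66 for CRL1505, a gap within the SD between probes, but 0.41 and 1.18 for CRL1506. The brightest one belongs to transcript variant 2 and the dimmer one to variant 1. For *Dhx58* the dimmer probe, near the background with a signal of 71.4 in LPS, had log2 ratios of 1.11 and 0.23. The probes of *Mb21d1* disagreed in sign for CRL1505, at 0.29 and -0.37, and were 0.06 and 0.48 for CRL1506. Gaps of this kind were not particular to the sensor genes. Among the pathway genes described below, another probe exceeded the brightest for CRL1506 in *Eif2s2* (1.75 against 0.06), *Eif2ak1* (1.41 against -0.44) and *G3bp1* (1.16 against -0.35). In *Otud5* another probe fell below the brightest (-1.24 against -0.05). The cause of these gaps was not tested.

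Compared directly, without the LPS array, CRL1505 + LPS was at least 2-fold above CRL1506 + LPS for 4 of 10 genes, where 9.02% of 15783 genes were, and for none was it at least 2-fold below, where 7.46% were. The log2 ratio was 1.498 for *Ifih1*, 1.32 for *Zbp1*, 1.27 for *Dhx58* and 1.23 for *Ddx58*. Over the other normalizations the lowest values were 1.11, 0.93, 0.89 and 0.84, so *Ifih1* stayed over 2-fold and the others came under it in at least 1. When the probes of a gene were averaged, *Dhx58* alone passed 2-fold, and the ratio of *Ifih1* was 0.00. *Trex1* followed with 0.70, and the remaining genes lay between -0.29 and 0.26.

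The promoters of 7 of the genes, from 250 bases before to 50 bases after the transcript start, were found in the RefSeq-derived table (GRCm38.p6), with 2 starts for *Trex1*. They were searched on both strands for the core of the interferon-stimulated response element (ISRE), which is GAAA, any 2 bases and GAAA again, a site bound by IRFs. The ISRE core occurred in 4 of the 7 genes, *Ddx58*, *Ifih1*, *Ddx60* and *Eif2ak2*, and in 3.44% of all 32851 promoters of that length. *Mavs*, *Mb21d1* and *Trex1* had no match, and *Dhx58*, *Zbp1* and *Tmem173* were not searched. A match describes the letters and does not show binding.

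The matches are shown in capitals, each in a window of 30 bases written 5′ to 3′ along the gene. For *Ddx60* the 80 bases before the start are given, since this gene had 2 matches, at positions -53 and -19 from the start. It was also the only gene of the set whose brightest probe passed 2-fold with both strains.
*Ddx60*, chr8:61928007-61928086, plus strand: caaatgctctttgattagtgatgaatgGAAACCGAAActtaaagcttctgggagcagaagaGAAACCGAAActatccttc
*Ifih1*, chr2:62646206-62646235, minus strand: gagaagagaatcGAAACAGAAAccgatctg
*Ddx58*, chr4:40239804-40239833, minus strand, match on the other strand: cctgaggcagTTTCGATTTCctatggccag
*Eif2ak2*, chr17:78882535-78882564, minus strand: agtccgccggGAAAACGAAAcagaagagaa
The matches of *Ddx58*, *Eif2ak2* and *Ifih1* began 3, 19 and 33 bases into the transcript, respectively, so that only *Ddx60* had them before its start.

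**Figure D3:**
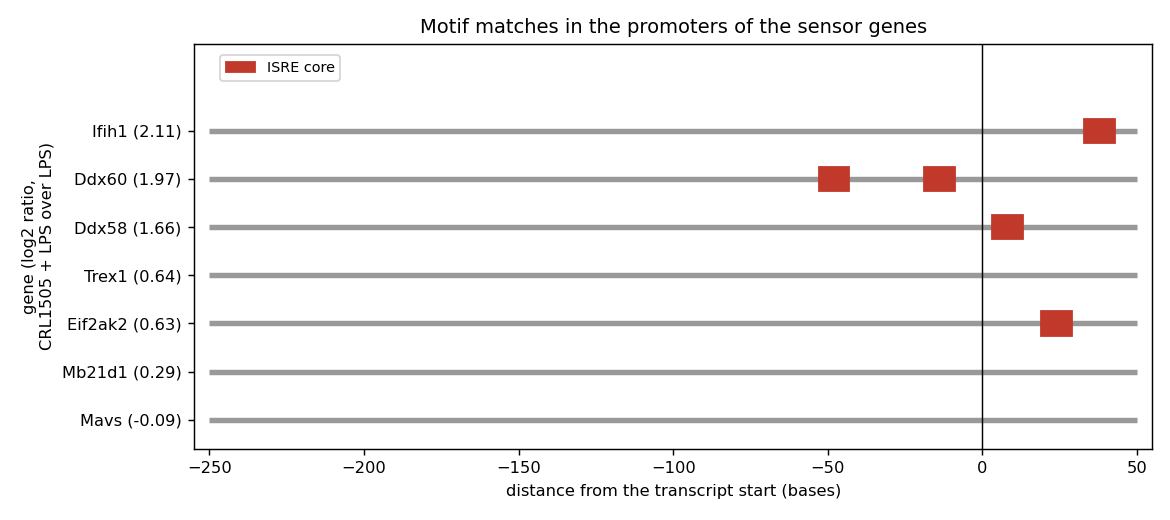
Motif matches are drawn by their distance in bases from the transcript start (horizontal axis) for the 7 genes with a promoter in the table, ordered by their log2 ratio of CRL1505 + LPS over LPS, given in brackets. Red boxes are ISRE cores. Of the genes drawn, the 3 with the highest ratios, *Ifih1*, *Ddx60* and *Ddx58*, each have at least 1 ISRE core, and *Eif2ak2* has 1. *Trex1*, with a slightly higher ratio than *Eif2ak2*, has none, and neither do *Mavs* and *Mb21d1*. *Dhx58*, *Zbp1* and *Tmem173* were not searched and are not drawn.

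The wider pathway was described by lists. Of 86 other genes of RNA sensing, DNA sensing and the PKR and ZBP1 partners, 85 were on the array. For CRL1505, 16 of the 82 compared were at least 2-fold higher and 1 was lower, beside 9.93% and 8.41% of all genes, with a median log2 ratio of 0.18, while the median was 1.15 over the 10 sensor genes and 0.01 over all genes compared. With the spike-in scaling 6 were higher and 10 lower. In that scaling 24.7% of all genes compared passed 2-fold, and 20.1% of those were higher. For CRL1506, 1 of 83 was at least 2-fold higher and none lower, beside 5.67% and 3.53% of all genes, with a median of -0.06, against 0.39 over the sensor genes and -0.06 over all genes. The CRL1506 counts rest on the brightest probe, and other probes passed 2-fold in some of these genes. They reached 2.47 for *Tank* and 1.94 for *Zc3hav1*, and -1.24 for *Otud5*.

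Around the RNA sensors, 7 of 38 genes compared were at least 2-fold higher for CRL1505, where 9.93% of all genes were. The largest ratio was that of *Nlrc5*, at 3.03 with CRL1505 and 1.34 with CRL1506 on the log2 scale. Its other probe gave 0.95 for CRL1505 and 1.22 for CRL1506. The log2 ratio of CRL1505 over CRL1506 was thus 1.70 on the brightest probe and -0.27 on the other. NLRC5 is known as an activator of MHC class I genes and has been linked to the control of RIG-I signalling. *Irf7*, which drives the amplification of interferon, had a log2 ratio of 1.90 and 0.87. The kinase gene *Tbk1* had 1.07 and -0.17, and *Irf3* and *Traf3*, which act beside it, had -0.23 and -0.59 for CRL1505. Of the 7 genes, *Nlrc5* and *Irf7* stayed over 2-fold with the spike-in scaling, while *Tbk1*, at 0.56, the activator of RIG-I *Trim25*, at 0.53, and *Azi2*, *Tomm70a* and *Adar*, at 0.50 to 0.92, came under it. The 1 gene that was lower was *Nlrx1*, whose mitochondrial product restrains MAVS. Its brightest probe gave -1.44 with CRL1505 and -0.27 with CRL1506 on the log2 scale, the former between -1.95 and -0.93 over the normalizations, and its other probe gave 0.04 with CRL1505. Processed signals of the brightest probe were low, with 330.5 in LPS, 84.5 in CRL1505 + LPS and 257.4 in CRL1506 + LPS. *Irf7*, *Tbk1*, *Irf3*, *Traf3*, *Trim25*, *Azi2*, *Tomm70a* and *Adar* were chosen after their values were seen.

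In the DNA sensing list, 6 of 32 genes were at least 2-fold higher for CRL1505, beside 9.93% of all genes, and 4 with the spike-in scaling, where *Trim56* and *Tbk1* came under 2-fold. *Mndal* had a log2 ratio of 2.44 and *Ifi204* of 1.90, both of the p200 family of interferon-inducible DNA-binding proteins, whose members are similar enough in sequence that probes may not separate them. *Usp18*, whose product removes ISG15 and restrains interferon receptor signalling, had 2.13. *Samhd1*, whose product depletes nucleotides, had 2.11, with its 5 probes between 1.07 and 2.39. For CRL1506 the brightest probes of these genes had 0.57 (*Samhd1*), 0.63 (*Usp18*), 0.75 (*Mndal*) and 0.41 (*Ifi204*). These were all under 2-fold, as was the brightest probe of every other gene of that list. Other probes passed 2-fold for CRL1506 in *Samhd1*, whose 5 probes lay between 0.57 and 1.43, and in *Polr3a*, *Polr3f* and *Slc19a1*. The log2 ratio of CRL1505 over CRL1506 was 1.54 on the brightest probe of *Samhd1*, but its 5 probes lay between -0.36 and 1.69. Among the partners of PKR and ZBP1, 4 of 17 were at least 2-fold higher for CRL1505 and none for CRL1506, where 9.93% and 5.67% of all genes were. They were *Mlkl*, the effector of necroptosis, with 1.47, *Ddit3*, with 1.44 and a second probe at 0.22, and *Ppp1r15b* and *Ppp1r15a*, which encode the subunits that direct a phosphatase to eIF2-alpha, with 1.12 and 1.03. All 4 came under 2-fold with the spike-in scaling. *Ripk3*, the kinase that ZBP1 binds, had -0.03. The genes of this group were likewise named after their values were seen.

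A list of 38 interferon-stimulated genes, of which *Irf7* and *Usp18* are also in the pathway lists, was set beside the sensors. For CRL1505, 35 of the 38 were at least 2-fold higher, beside 9.93% of all genes and against 22 with the spike-in scaling, with a median log2 ratio of 1.81 and a range from 0.09 (*Slfn5*, whose 5 probes reached 4.67) to 2.82 (*Ifit2*). For CRL1506, 7 were, beside 5.67% of all genes, and from 3 (median shift) to 11 (quantile and loess) in the other normalizations, with a median of 0.54 and a range from -0.31 (*Gbp2*) to 1.51 (*Oas2*). The log2 ratios of *Ddx58*, *Ifih1*, *Dhx58*, *Zbp1* and *Ddx60* for CRL1505 thus lay inside the range of this list. For CRL1506 the brightest probe of *Ddx60*, at 1.77, lay above the highest value in the list, 1.51. The other probe of *Ddx60*, at 1.48, lay below that value.

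**Figure D4:**
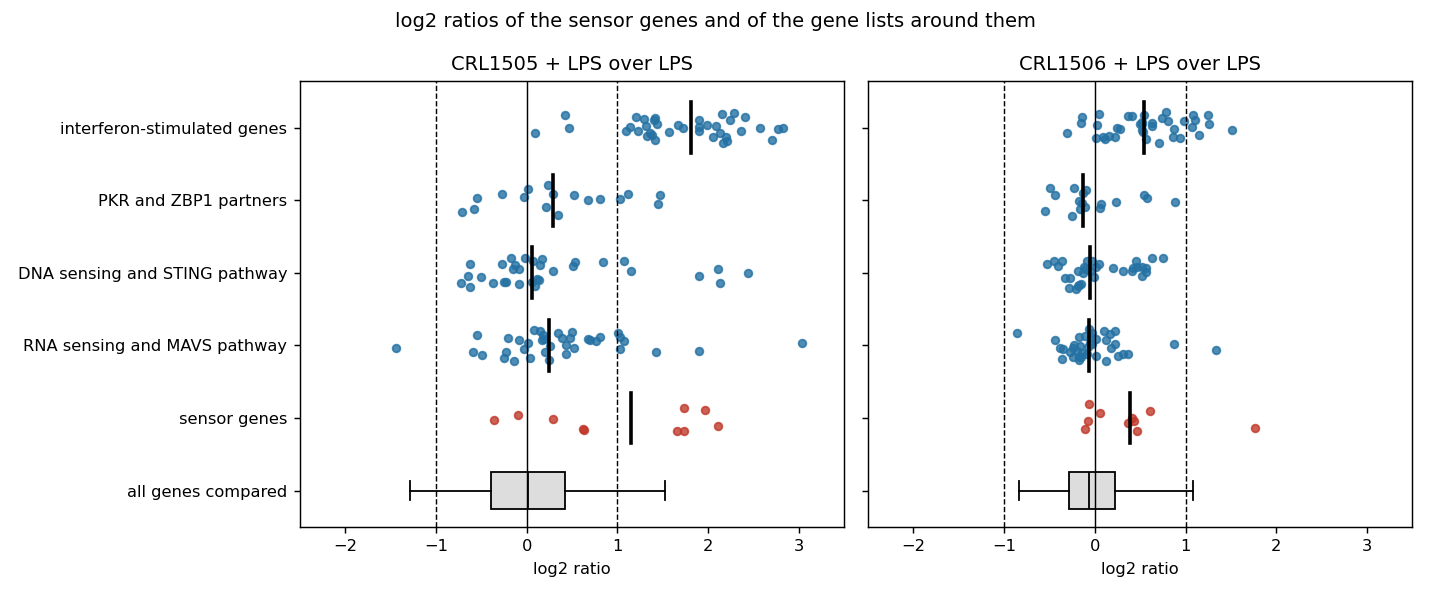
The log2 ratio (horizontal axis) to LPS is plotted for CRL1505 + LPS (left) and CRL1506 + LPS (right), with 1 point per gene, a black bar at the median of each list and dashed lines at 2-fold. The box shows the quartiles of all genes compared and its whiskers the 5th and 95th percentiles, and a gene in several lists is drawn in each. For CRL1505 the median of the sensor genes, 1.15, lies between those of the pathway lists, which are at most 0.29, and that of the interferon-stimulated genes, 1.81, while for CRL1506 all list medians are at most 0.54.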

How the data were processed

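RNA of 3 arrays was analysed, 1 per condition. The authors deposited for each array the spot intensities of Feature Extraction (version 12.0.3.1 per the file headers), with background and spatial trends removed and no normalization between arrays. They also deposited a table of normalized log2 values, whose median was the same on each array and whose method is given only as GeneSpring. Per the file headers, probe positions are on mm9.

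From these, the log2 processed signal had the log2 75th percentile over the array's 59305 gene spots subtracted. That percentile ranged from a signal of 517.0 to 743.1, with 48.5% to 55.3% of gene spots well above background. Spots marked as outliers (241 to 467 per array) were left out, repeated spots were averaged, and the brightest probe stood for a gene. Where 1 side was not well above background, it was set to the lowest signal well above background on its array or its own, whichever was higher. The number of arrays limits the precision. Without replicates the methods' *t*-test could not be computed. A spot was called uneven where its mean pixel signal exceeded the median by over 0.2 (log2).

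The named genes were the 10 members, and from the pathway lists up to 5 higher and 5 lower per comparison among those past 2-fold. Other pathway and interferon-stimulated genes that the text names were chosen after their values were seen. The members and lists were chosen with earlier results of these data known. Alternatives were the shift by the median, the percentile over detected probes, spike-in scaling (8 probes), quantile, cyclic loess, normexp with an offset of 50, the deposited table, outliers kept, averaged probes, no filter, detection on all arrays, and thresholds of 1.5-fold and 4-fold. The steps were tested on simulated data. 1 other promoter motif is not reported here. Python 3.11.15, pandas 2.3.3, NumPy 2.4.6, SciPy 1.17.1, matplotlib 3.10.9, R 4.3.3 and limma 3.58.1 were used.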

Additional observations from a re-analysis of the deposited data

Results flagged for a closer look

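The dimmer of the 2 probes of *Mb21d1* moved in opposite directions with the strains, each time by more than the median probe-to-probe SD. Its log2 ratio to LPS was -0.37 for CRL1505 and 0.48 for CRL1506, with processed signals of 1471 in LPS, 790.2 in CRL1505 + LPS and 1933 in CRL1506 + LPS. The difference was not tested, since there is 1 array per condition. The brightest probe of *Mb21d1* had 0.29 and 0.06.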

How the results depend on the processing

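The median log2 ratio of all genes compared moved from 0.01 for CRL1505 and -0.06 for CRL1506 to 0.33 and -0.26 with the median shift and to -0.48 and -0.18 with the spike-in scaling, and the sensor genes moved with it. Their median minus that of all genes lay between 1.004 and 1.14 for CRL1505 over all settings, and between 0.31 and 0.52 for CRL1506. Among all genes past 2-fold, the percentage that was higher went from 54.1% to 76.1% (median shift) and 20.1% (spike-in) for CRL1505, and from 61.6% to 43.4% and 51.3% for CRL1506. The median over the sensor genes was 1.44 with the median shift and 0.64 with the spike-in scaling for CRL1505 over LPS, and 0.98 and 0.10 for CRL1505 over CRL1506. The 5 genes at least 2-fold higher for CRL1505 numbered 5 in every other normalization and 1 at a threshold of 4-fold. The 1 gene for CRL1506 became 2 with averaged probes (*Ifih1* at 1.62 beside *Ddx60*) or at 1.5-fold, and 0 at 4-fold. The 4 genes higher in CRL1505 than in CRL1506 became 1 with the spike-in scaling, 1 with averaged probes and 0 at 4-fold. No sensor gene past 2-fold changed sign. Of 330 values of single sensor genes under the alternatives, 271 moved by less than the SD between probes, and the cause of the other 59 was not tested. Of 156 list counts, 109 stayed within 1.5 times. No paired analysis was possible because each group holds 1 array.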
